A study of Mus musculus with 5 samples.

Results

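Hepatic stellate cells sorted for vitamin A and for activity of the Col1a1 promoter were compared between mice given a liver carcinogen and an alcoholic Western diet and mice kept on chow. Members were chosen cell by cell from the 2 libraries of the vitamin A-positive, Col1a1-positive (VitA+Col1a1+) sort. A cell was kept when it had 2000 or more molecular tags (UMIs, which count captured mRNA molecules), 1 or more UMI of Lrat, and 0 UMIs of Pecam1, Ptprc and Epcam, which mark endothelial, blood and bile duct cells. The rule kept 9977 of 10481 barcodes of the DEN+WAD library and 232 of 259 of the chow library, 10209 of 10740 in all and out of 24007 in the 5 libraries of the series. Within 1000 UMIs above the depth limit there were 24 DEN+WAD and 0 chow members, and within 1000 UMIs below it 57 and 1 barcodes, of which 28 and 1 had an Lrat UMI.

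All mice were male, on a C57BL/6J background, and carried Rosa26mTmG and Col1a1-Cre. The DEN+WAD mice received 10 mg/kg of diethylnitrosamine (DEN), a carcinogen that hepatocytes activate, by intraperitoneal injection at 2 weeks of age, and then a liquid Western alcohol diet (WAD) with 3.5% ethanol by volume for 5 months from 6 weeks of age. The chow mice received saline and chow, with the same recorded schedule: injection at 2 weeks of age and diet for 5 months from 6 weeks of age. Cre was driven by the Col1a1 promoter, so that a cell carries green fluorescent protein (GFP) once that promoter has been active, whether or not it still is. Non-parenchymal liver cells were sorted for GFP and for the ultraviolet autofluorescence of vitamin A, and the number of mice behind each library is not stated in the sources used here. Each condition is 1 library, so no difference has a replicate check and none was tested. The intervals given are 95% intervals of the counts and cover counting error only.

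Stellate cells lie between hepatocytes and the sinusoidal endothelium and hold most of the body's vitamin A as retinyl esters in lipid droplets. In liver injury they are known to activate, a change in which the droplets shrink and the cells make fibrillar collagen, contractile proteins, protease inhibitors and chemokines. Lrat esterifies retinol for storage, Reln encodes the secreted protein reelin, and Col1a1 encodes the main chain of collagen I, the product by which activation is usually followed.

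The libraries differed in size and depth before any gene was compared. The DEN+WAD cells held 145469540 UMIs, the median cell having 13322 UMIs from 3624 genes, and the chow cells held 5596529 UMIs, the median cell having 24418.5 from 4978 genes. Levels are given in CPM, the UMIs of a gene per 1000000 UMIs of the selected cells. A count of 3 UMIs, used as the floor for a gene at 0, is 0.0206 CPM in DEN+WAD and 0.536 CPM in chow. Mitochondrial genes made up 2.78% of UMIs in DEN+WAD and 2.72% in chow, and ribosomal protein genes 10.5% and 8.77%. Of the barcodes, 40 of DEN+WAD and 2 of chow also occurred in another library of the series.

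The label of stellate cells held in both libraries. All 15 stellate markers were detected in both, none differed by 2-fold, and their summed level was 55456 CPM in DEN+WAD and 52599 CPM in chow. Lrat is 1 of the 15, so its detection was set by the cell rule, and it is part of these sums. Ecm1, a secreted matrix protein typical of these cells, was at 9999 CPM in DEN+WAD and 10101 CPM in chow. Dcn, the proteoglycan decorin, was at 26568 CPM and 23525 CPM. Colec11, a collectin of the complement system, was at 6219 CPM and 5256 CPM. Reln was lower in DEN+WAD, at 1184 CPM against 1968 CPM (log2 ratio -0.73, interval -0.76 to -0.70), as was Hhip, an inhibitor of Hedgehog signalling, at 182 CPM against 346 CPM (-0.93, -0.99 to -0.86). Lrat itself, which the cell rule used, was at 1524 CPM against 2015 CPM. Over the 36 genes of the longer stellate identity list the median log2 ratio was -0.23, with 25 intervals below 0 (69.4%, beside 33% of all genes compared) and 9 above it.

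Across the transcriptome the libraries were close. Of 7942 genes with a mean of 10 CPM or more over both libraries, 89.6% differed by less than 1.5-fold, and the median log2 ratio of DEN+WAD over chow was -0.05. By the rule of 2-fold or more, 66 genes (0.831%) were higher in DEN+WAD and 124 (1.56%) were lower. At this depth counting intervals are narrow, and they lay wholly above 0 for 1854 of the 7942 genes (23.3%) and wholly below 0 for 2618 (33%), shares against which the counts of the lists are to be read. The balance of these counts depended on the scaling: with trimmed-mean (TMM) factors the median of all genes moved to 0.06 and the counts to 88 higher and 98 lower. In the plot of ratio against level, the higher genes are chiefly of low or moderate level.

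**Figure D1:**
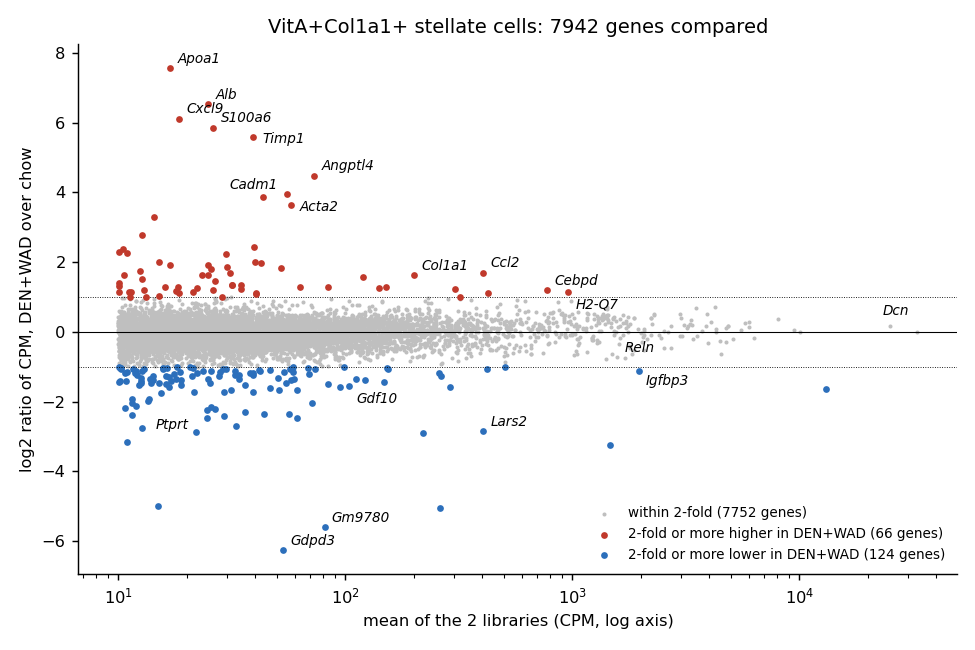
Each of the 7942 compared genes is drawn by its mean level in the 2 libraries (CPM, log axis) and by its log2 ratio of DEN+WAD over chow; red points are the 66 genes 2-fold or more higher, blue points the 124 lower, grey points the rest, and dotted lines mark 2-fold. Most genes lie within 2-fold at every level, and Alb and Cxcl9, which had 0 UMIs in chow, are drawn against the floor of 3 UMIs.

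Genes of activated, matrix-making stellate cells were among the higher ones, but their UMIs lay in few cells. Col1a1 (11:94936224-94953042, plus strand, GRCm38) was at 302 CPM in DEN+WAD and 98.1 CPM in chow, a 3.08-fold difference (log2 1.62, interval 1.5 to 1.75). Acta2, which encodes alpha-smooth muscle actin of the contractile apparatus, was at 106 CPM against 8.58 CPM (3.63, 3.22 to 4.07). Timp1, an inhibitor of matrix metalloproteinases, was at 76.8 CPM against 1.61 CPM (5.58, 4.65 to 6.71), the latter from 9 UMIs. S100a6, a calcium-binding protein, was at 51.5 CPM against 0.893 CPM (5.85, 4.63 to 7.47), the latter from 5 UMIs. Their levels in DEN+WAD thus exceeded the upper end of the chow interval in each case. Serpine2, an inhibitor of serine proteases, was at 16.7 CPM against 3.39 CPM (2.30), and Mmp23, a metalloproteinase, at 45.3 CPM against 17.9 CPM (1.34). Dpt, the matrix protein dermatopontin, was at 49.0 CPM against 10.5 CPM (2.22), and Ly6a, a surface antigen of fibroblasts, at 180 CPM against 60.0 CPM (1.59); both also stand on the list of portal fibroblast genes.

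Most other genes of the matrix and contractile lists were within 2-fold. Some matrix genes outside these lists were past it, Dpt and Aebp1 higher and Col6a5 and Ogn lower. Of 27 collagen and matrix genes compared, Col1a1 alone was past 2-fold, and the median of the list was 0.08. Col1a2, the partner chain of collagen I, was at 658 CPM against 512 CPM (0.36, 0.31 to 0.42), and Col3a1, the chain of collagen III, at 1154 CPM against 872 CPM (0.40, 0.36 to 0.45). Sparc, a matrix-binding glycoprotein, was at 4609 CPM against 3217 CPM (0.52), and Bgn, biglycan, at 5119 CPM against 4537 CPM (0.17). Lamc1 and Lamb1, laminin chains of the basement membrane, were on the other side, at -0.55 and -0.41. Of 22 matrix remodelling genes, Timp1, Serpine2 and Mmp23 were higher by 2-fold and none was lower. Of 19 contractile genes Acta2 alone passed, while Tpm1, a tropomyosin, stood at 374 CPM against 195 CPM (0.94), Tagln, transgelin, at 707 CPM against 425 CPM (0.74), and Myh10, a non-muscle myosin heavy chain, at 22.2 CPM against 40.0 CPM (-0.85).

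**Figure D2:**
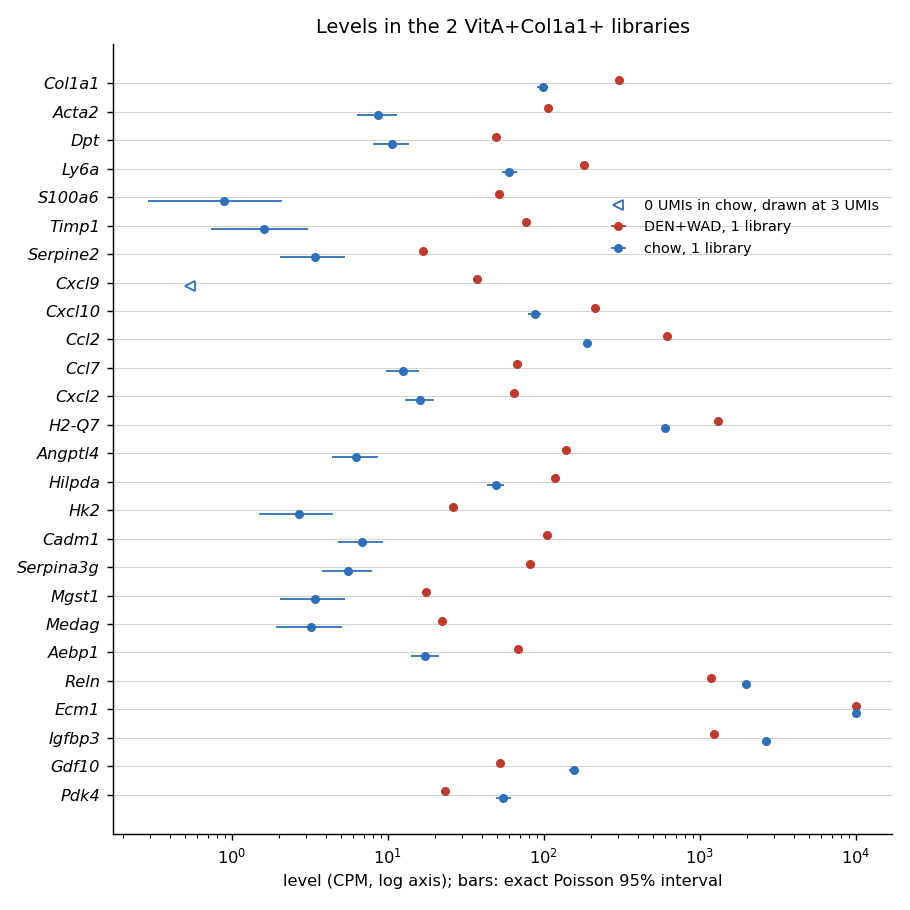
Levels of 26 genes in the 2 VitA+Col1a1+ libraries (CPM, log axis; red, DEN+WAD; blue, chow; bars, exact Poisson 95% intervals, which cover counting error only, and the open triangle a gene with 0 UMIs in chow drawn at 3 UMIs). Col1a1 is at 302 CPM in DEN+WAD and 98.1 CPM in chow and Ecm1 at nearly the same level in both, while Reln, Igfbp3, Gdf10 and Pdk4 are lower in DEN+WAD.

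How a gene's UMIs were spread over cells was measured as the smallest number of cells that together held 50% of them. For Reln this took 3123 of the 9977 DEN+WAD cells, or 31.3%. For Acta2 it took 57 cells (0.571%), for S100a6 74 (0.742%), for Timp1 92 (0.922%), for Dpt 137 (1.37%) and for Col1a1 235 (2.36%). Among the 1951 genes at 50 to 150 CPM in DEN+WAD, the range that holds Acta2 and Timp1, the median was 17.8% of cells. In chow, Acta2 and S100a6 took 2 cells each of 232, Dpt 3, Timp1 4 and Col1a1 24 (10.3%). The chow levels of S100a6 and Timp1 rest on few UMIs, 5 in 4 cells and 9 in 8 cells. Those of Acta2 and Dpt rest on few cells, the 59 Dpt UMIs lying in 12. Where many UMIs of a gene lie in few cells, the counting intervals, which treat UMIs as independent, are too narrow. Of the 66 higher genes, 24 (36.4%) had 50% of their UMIs in less than 5% of the cells, against 2.48% of all genes compared.

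**Figure D3:**
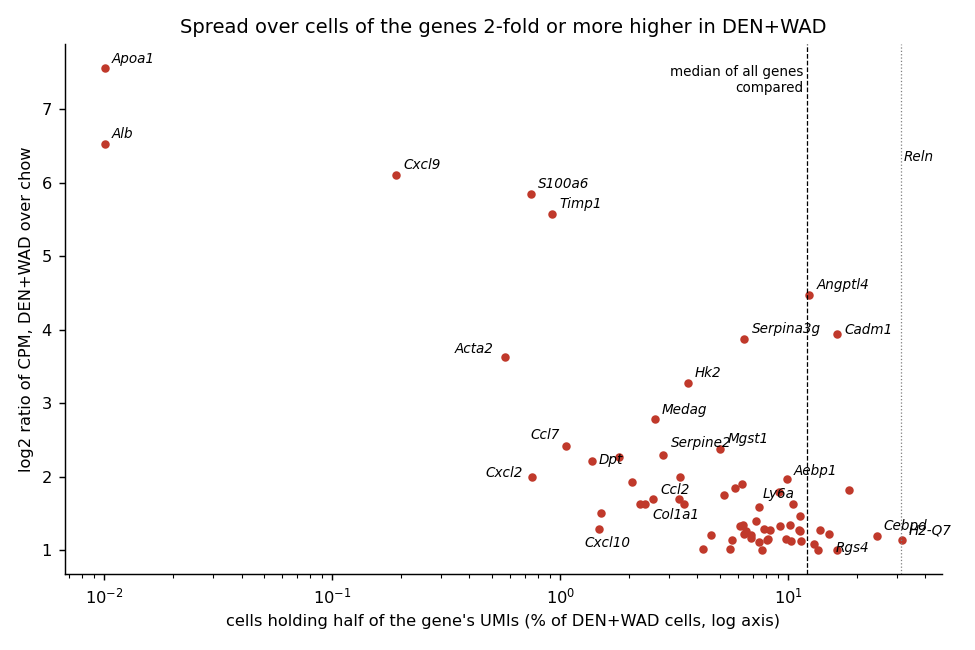
Each of the 66 genes 2-fold or more higher in DEN+WAD is drawn by the percent of DEN+WAD cells that hold 50% of its UMIs (log axis) and by its log2 ratio; the dashed line is the median of all genes compared (12.2%) and the dotted line is Reln (31.3%). Alb and Apoa1 rest on 1 cell each, Cxcl9, Acta2, Cxcl2, S100a6 and Timp1 on less than 1% of cells, and Angptl4, Cadm1 and H2-Q7 on a share at or above the median.

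The cells that carried Acta2 and collagen I had less of the stellate markers than the rest. In the 57 Acta2 cells, Lrat was at 564 CPM against 1534 CPM in all other DEN+WAD cells, Reln at 449 CPM against 1192 CPM and Ecm1 at 2494 CPM against 10080 CPM. The same cells held Tagln at 7323 CPM against 635 CPM, Col1a1 at 2782 CPM against 275 CPM, and Myh11, the smooth muscle myosin heavy chain, at 318 CPM against 22.2 CPM. Both stellate and smooth muscle genes were thus present in their summed counts. The 235 Col1a1 cells held Lrat at 879 CPM against 1553 CPM, Col3a1 at 6673 CPM against 900 CPM, S100a6 at 673 CPM against 23 CPM and Dpt at 439 CPM against 31.1 CPM. The groups overlapped in part: 29 cells were in both the Acta2 and the Col1a1 group (50.9% of the former and 12.3% of the latter), 57 in both the S100a6 and the Col1a1 group (77.0% and 24.3%), and 73 in both the Dpt and the Col1a1 group (53.3% and 31.1%). As the cells were picked by their UMIs, deeper cells enter such groups more readily and the levels of the picked gene itself are no result.

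These cells were also deep ones. Of all DEN+WAD cells 4.44% had more than 2 times the library's median UMIs, against 43.9% of the Acta2 cells, 54.1% of the S100a6 cells and 45.1% of the Col1a1 cells. Without the cells past that limit Acta2 remained at a log2 ratio of 3.15, S100a6 at 5.22 and Timp1 at 4.98, and Col1a1 was at 1.14. When the 5% of cells richest in the gene were left out of each library, Col1a1 was at 0.81, under 2-fold. Acta2, Timp1 and S100a6 then had 0 UMIs in chow and 3.15 CPM, 16 CPM and 4.98 CPM in DEN+WAD. When each cell was thinned to 2000 UMIs, the log2 ratios were 2.72 for Acta2, 3.05 for Timp1 and 3.99 for S100a6. Lists of other cell types differed as well. The 15 portal fibroblast genes summed to 300 CPM in DEN+WAD and 132 CPM in chow, with Cd34, Fbln2, Msln and Pi16 at 0 in chow alone and Upk1b at 0 in both. The 11 vascular smooth muscle genes summed to 1179 CPM and 761 CPM, with Actg2 and Cnn1 at 0 in chow alone and Pln at 0 in both. Of these sums Tagln gave 707 CPM and 425 CPM and Des, desmin, 322 CPM and 294 CPM. The 44 hepatocyte genes summed to 1580 CPM and 1035 CPM, of which Mt1 gave 945 CPM and 647 CPM and Apoc1 304 CPM and 205 CPM. Of the 44 genes 26 were at 0 in chow, among them Alb, Ttr and Hnf4a, and none in DEN+WAD. As the chow cells held 5596529 UMIs against 145469540, genes of low level are more readily at 0 in chow. Of the 7227 Alb UMIs 94.4% lay in 1 cell, as did 96.9% of the 4911 Apoa1 UMIs. The part of cells of other types, or of 2 cells under 1 barcode, in these ratios was not tested.

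Chemokine genes formed the list with most members past 2-fold. Of 28 chemokine and NF-kB response genes compared, 7 (25%) were higher and none lower, beside 0.831% and 1.56% of all genes, with a median of 0.44. Of their intervals 19 (67.9%) lay above 0 and 5 below, beside 23.3% and 33% of all genes. Ccl2 (11:82035571-82037453, plus strand), which draws monocytes, was at 616 CPM in DEN+WAD and 190 CPM in chow (1.70, 1.61 to 1.79). Its neighbour Ccl7 (11:82045712-82047525, plus strand), a ligand of the same receptor family, was at 66.9 CPM against 12.5 CPM (2.42, 2.08 to 2.78). The neutrophil attractants Cxcl1 and Cxcl2 were at 578 CPM against 268 CPM (1.11) and at 64.2 CPM against 16.1 CPM (2.00). All 4 were higher in DEN+WAD with intervals above 0. Cxcl9, a T cell attractant induced by interferon-gamma, had 5387 UMIs in DEN+WAD (37.0 CPM) and 0 in chow. That is 69.1-fold higher against the floor of 3 UMIs, with a lower end of the counting interval at 56.2-fold. All of its UMIs lay in 324 cells, and after thinning its log2 ratio against the floor was 2.18. Serpina3g, an intracellular serine protease inhibitor, was at 81.4 CPM against 5.54 CPM (3.88), in a gene cluster of close copies with 34.1% of its 3' end shared. Cxcl12, the chemokine that stellate cells make at rest, was at 4082 CPM against 4876 CPM (-0.26).

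The UMIs of most of the higher chemokine genes lay in few cells too. In DEN+WAD, 255 cells held 50% of the Ccl2 UMIs, 148 those of Cxcl10, 106 those of Ccl7, 75 those of Cxcl2 and 19 those of Cxcl9. Those of Cxcl1 and Serpina3g were spread more widely, over 744 cells (7.46%) and 641 cells (6.42%). Of the 148 Cxcl10 cells 85 (57.4%) were among the 255 Ccl2 cells, of which they made up 33.3%. The Ccl2 group shared 4 cells with the Acta2 group (1.57% of the former and 7.02% of the latter) and 15 with the Col1a1 group (5.88% and 6.38%), and Ccl2 was at 857 CPM in the Acta2 cells against 613 CPM in the rest. Stellate markers in the Ccl2 cells were nearer to the rest, with Lrat at 1207 CPM against 1534 CPM and Ecm1 at 8323 CPM against 10053 CPM, and 11.8% of these cells were over 2 times the median UMIs. The 19 Cxcl9 cells held Cxcl10 at 3767 CPM against 202 CPM and Timp1 at 1241 CPM against 73.1 CPM.

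Interferon-response and antigen presentation genes were slightly higher as lists, with few members past 2-fold. Of 37 interferon-response genes 3 were higher (Cxcl9, Zbp1 and Cxcl10), 2 lower (Oas1a and Gbp6, whose 3' ends are shared with other genes over 61.9% and 96.8% of their length), and the median was 0.26 with 23 intervals above 0 (62.2%, beside 23.3% of all genes) and 6 below. Zbp1, a sensor of left-handed nucleic acid, was at 45.3 CPM against 18.1 CPM (1.33, 1.04 to 1.63), and Cxcl10 at 213 CPM against 87.2 CPM (1.29, 1.16 to 1.42). Ifitm3, a membrane protein that restricts viral entry, was at 4294 CPM against 2696 CPM (0.67), whereas Ifit3b, an antiviral protein, was at 68.0 CPM against 87.9 CPM (-0.37). Of 22 antigen presentation genes H2-Q7 was higher, at 1316 CPM against 599 CPM (1.14, 1.09 to 1.19), and H2-Q4 lower, at 272 CPM against 571 CPM (-1.07). The 2 genes are close copies in the Q region of the major histocompatibility complex, and 40.4% of the H2-Q4 3' end is shared with other genes, so that the split of reads between them is uncertain. H2-T23, a class I gene recognised by natural killer cells, was at 796 CPM against 435 CPM (0.87), while B2m, the light chain of all class I molecules, was at 6263 CPM against 5696 CPM (0.14).

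Promoters of 2 interferon-response genes and of the antigen presentation gene H2-T23 are shown because they share a motif and yet the genes differ in direction. The interferon-stimulated response element, searched on both strands as TTTC, any 2 bases and TTTC again, lay in the 250 bases before the start of 15 of the 28 interferon-response genes that had an entry in the promoter table from RefSeq (53.6%), against 2.98% of all 32851 promoters there. The median log2 ratio was 0.30 for the 15 genes with the motif and 0.26 for the 13 without it. Below are the 250 bases before the start of Cxcl10 (chr5:92348890-92349139, minus strand), H2-T23 (chr17:36032702-36032951, minus strand) and Ifit3b (chr19:34607707-34607956, plus strand) in GRCm38.p6, written 5' to 3' with the motif in capitals.
Cxcl10: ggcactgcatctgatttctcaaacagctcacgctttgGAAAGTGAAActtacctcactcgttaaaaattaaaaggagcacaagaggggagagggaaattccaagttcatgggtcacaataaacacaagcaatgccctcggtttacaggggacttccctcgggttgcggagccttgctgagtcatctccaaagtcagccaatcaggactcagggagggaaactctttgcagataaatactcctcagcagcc
H2-T23: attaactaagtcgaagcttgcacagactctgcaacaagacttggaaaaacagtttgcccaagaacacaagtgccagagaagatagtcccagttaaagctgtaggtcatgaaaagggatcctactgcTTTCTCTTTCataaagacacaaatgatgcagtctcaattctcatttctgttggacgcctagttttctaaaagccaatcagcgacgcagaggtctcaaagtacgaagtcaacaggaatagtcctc
Ifit3b: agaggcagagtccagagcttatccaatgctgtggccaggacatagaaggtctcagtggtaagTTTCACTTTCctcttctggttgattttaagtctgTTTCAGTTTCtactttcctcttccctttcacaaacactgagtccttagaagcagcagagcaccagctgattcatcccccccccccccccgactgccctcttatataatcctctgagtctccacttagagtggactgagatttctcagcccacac
The motif begins 213 bases before the start in Cxcl10 and 124 in H2-T23, and Ifit3b holds it at 188 and at 154 bases, although Ifit3b is the one of the 3 that was not higher in DEN+WAD. A match in these letters is a description and not a measured binding site.

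Genes of lipid and glucose handling were among those most different. Angptl4 (17:33773750-33781830, minus strand), a secreted inhibitor of lipoprotein lipase, was at 139 CPM in DEN+WAD and 6.25 CPM in chow (4.48, 4.0 to 5.0). Its UMIs were spread widely, 1236 cells (12.4%) holding 50% of them, close to the median of 12.2% over all genes, while its chow level rests on 35 UMIs. Hilpda, an inhibitor of lipid droplet lipolysis, was at 118 CPM against 49.0 CPM (1.27, 1.10 to 1.45). Hk2, the hexokinase that traps glucose, was at 26.0 CPM against 2.68 CPM (3.28, 2.56 to 4.12), with 362 cells (3.63%) holding 50%, and was at 1.69 when each cell was thinned to 2000 UMIs. Its list, of insulin, nutrient and lipoprotein uptake genes, ran the other way, with a median of -0.26. Of 13 genes compared there, 9 had intervals below 0 (69.2%, beside 33% of all genes) and 1 above. In the other direction Pdk4, a kinase that shuts off pyruvate dehydrogenase, was at 23.4 CPM against 55.0 CPM (-1.24), and at -0.53, under 2-fold, after thinning. Angptl4, Hilpda and Pdk4 were the 3 of 17 lipid droplet and PPAR target genes past 2-fold, and the median of the list was 0.13. Lpl, lipoprotein lipase itself, was at 379 CPM against 249 CPM (0.60), and Apoe, the lipoprotein ligand, at 9627 CPM against 9295 CPM (0.05).

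Synthesis of fatty acids and sterols lay on the lower side without a member past 2-fold. Of 18 genes compared 10 had intervals below 0 (55.6%, beside 33% of all genes) and 2 above, with a median of -0.35. Fasn, fatty acid synthase, was at 17.9 CPM against 27.5 CPM (-0.62), Fads1, a desaturase of polyunsaturated fatty acids, at 32.1 CPM against 47.9 CPM (-0.58), and Scd2, a stearoyl-CoA desaturase, at 62.1 CPM against 83.8 CPM (-0.43, -0.57 to -0.29). Among 14 retinoid genes none passed, Bco1, the enzyme that cleaves beta-carotene, being at 190 CPM against 256 CPM (-0.43) and Rdh10, a retinol dehydrogenase, at 30.6 CPM against 20.2 CPM (0.60). Of 31 antioxidant and ethanol metabolism genes 20 had intervals above 0 (64.5%, beside 23.3% of all genes) and 6 below. Mt2, a metallothionein, was at 198 CPM against 82.4 CPM (1.27), and Gpx1, a glutathione peroxidase, at 283 CPM against 183 CPM (0.63).

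Other genes past 2-fold were of several kinds and together form none of the lists. Cadm1 (9:47530173-47857637, plus strand), an immunoglobulin-type adhesion molecule, was at 104 CPM in DEN+WAD and 6.79 CPM in chow (3.94, 3.48 to 4.44). It took 1635 DEN+WAD cells (16.4%) to hold 50% of its UMIs, but 3 cells in chow, where it had 38 UMIs in all. Cebpd, a transcription factor of the acute-phase response, was at 1079 CPM against 472 CPM (1.19), and Rgs4, a brake on G protein signalling, at 428 CPM against 183 CPM (1.22); 2438 and 1506 cells held 50% of them. Aebp1, a matrix-binding carboxypeptidase-like protein, was at 68.0 CPM against 17.3 CPM (1.97, 1.68 to 2.28), and at 0.91, under 2-fold, after thinning to 2000 UMIs. Medag was at 22.2 CPM against 3.22 CPM (2.79) and Mgst1, a microsomal glutathione transferase, at 17.6 CPM against 3.39 CPM (2.38). Cd44, the receptor of hyaluronan, was at 26.8 CPM against 7.15 CPM (1.91), and Plat, tissue plasminogen activator, at 47.4 CPM against 14.7 CPM (1.69).

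Several signalling genes that the study centred on lay below chow, while Ctgf, Cyr61 and Ccnd1, which it used as readouts, lay above. Lrp5, a Wnt co-receptor, was at 44.6 CPM against 91.7 CPM (-1.04, -1.17 to -0.91), the 1 of 21 Wnt and beta-catenin genes past 2-fold. Ctnnb1, beta-catenin, was at 181 CPM against 218 CPM (-0.27), and Ccnd1, cyclin D1, on the upper side at 84.3 CPM against 46.3 CPM (0.86). The Wnt list had 14 intervals below 0 (66.7%, beside 33% of all genes) and 2 above. The list of YAP and TEAD targets also holds Yap1 itself and the kinase Lats2, so it is not made of targets alone. Of its 19 genes compared, 14 had intervals below 0 (73.7%) and 3 above, with a median of -0.36. Yap1 was at 59.6 CPM against 76.3 CPM (-0.36, -0.50 to -0.21). Members past 2-fold were Igfbp3, a carrier of insulin-like growth factors (1237 CPM against 2675 CPM, -1.11, -1.14 to -1.09), and Ajuba, a LIM protein (10.3 CPM against 21.3 CPM, -1.05). Ctgf, a matricellular growth factor, ran the other way at 306 CPM against 155 CPM (0.98, 0.88 to 1.08), with 817 cells holding 50% of its UMIs. So did Cyr61, at 1582 CPM against 1291 CPM (0.29, 0.26 to 0.33). The intervals of Wwtr1 (-0.07) and Elavl1 (-0.11) included 0. Under TMM factors every log2 ratio is 0.11 higher.

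The TEAD motif GGAATG, searched on both strands, lay in the 250 bases before the start of 8 of 14 genes of the YAP and TEAD target list with an entry (57.1%), against 12.6% of all promoters. The promoters of Ajuba (chr14:54577662-54577911, minus strand) and of Acta2 (chr19:34255374-34255623, minus strand) are shown, in GRCm38.p6 from RefSeq, because both hold it while the genes differ in direction; capitals mark the motif.
Ajuba: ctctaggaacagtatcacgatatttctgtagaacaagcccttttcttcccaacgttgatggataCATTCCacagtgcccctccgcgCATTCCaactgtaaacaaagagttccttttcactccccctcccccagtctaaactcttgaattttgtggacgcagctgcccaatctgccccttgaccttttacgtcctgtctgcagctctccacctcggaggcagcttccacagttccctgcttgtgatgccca
Acta2: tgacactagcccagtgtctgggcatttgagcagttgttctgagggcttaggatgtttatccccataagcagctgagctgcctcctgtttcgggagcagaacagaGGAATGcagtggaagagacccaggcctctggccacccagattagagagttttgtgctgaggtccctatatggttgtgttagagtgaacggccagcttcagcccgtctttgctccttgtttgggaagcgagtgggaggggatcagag
Ajuba holds the motif at 186 and 164 bases before its start and Acta2 at 146 bases.

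Genes lower in DEN+WAD included named protein-coding genes and many features that are hard to count. Gdf10, a bone morphogenetic protein, was at 52.4 CPM in DEN+WAD and 155 CPM in chow (-1.57, -1.67 to -1.46). Col6a5, a chain of collagen VI, was at 28 CPM against 114 CPM (-2.03), and Ogn, osteoglycin, at 23 CPM against 69.7 CPM (-1.60). Adamts13, the protease that trims von Willebrand factor and that the liver's stellate cells secrete, was at 67.6 CPM against 177 CPM (-1.39, -1.48 to -1.29). Dll4, a Notch ligand, was at 8.30 CPM against 25 CPM (-1.59), and Ptprt, a receptor tyrosine phosphatase, at 7.51 CPM against 41.5 CPM (-2.46). None of the 21 vasoactive and hormone receptors was past 2-fold, though Adra2b, an adrenergic receptor, stood at 225 CPM against 403 CPM (-0.84), and Calcrl, the calcitonin receptor-like receptor, at 401 CPM against 633 CPM (-0.66).

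The largest differences on the lower side were of other kinds. Gdpd3, a lysophospholipase D, was at 1.37 CPM against 105 CPM (-6.26, -6.49 to -6.02), with no 3' bases shared with another gene. Gm9780, Gm8797, Plac9b and Gm11808 were at log2 ratios of -5.61, -5.04, -5.00 and -2.91, and share 98.8%, 82.2%, 95% and 93.2% of their 3' ends with other counted genes, so that their values are uncertain. Lars2, mitochondrial leucyl-tRNA synthetase, was at 98.6 CPM against 712 CPM (-2.85), and 2 transcripts known to take up ribosomal RNA reads, AY036118 and Gm42418, were at 279 CPM against 2635 CPM (-3.24) and at 6304 CPM against 19776 CPM (-1.65). Of the 124 lower genes 20.2% share more than 50% of their 3' end with another counted gene, against 0.970% of all genes compared, and 15.3% are not protein-coding, against 1.11%. Among protein-coding genes without such sharing 64 were higher and 81 lower.

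Some further lists had hardly a member past 2-fold. Of 33 immediate-early and heat-shock genes only Egr2 and Cebpd were higher by 2-fold and none was lower, with a median of -0.14. Among their members the heat-shock genes Hspa1b, at 3554 CPM against 5480 CPM (-0.62), and Dnajb1, at 1166 CPM against 1828 CPM (-0.65), lay below chow. The TGF-beta list had no member past 2-fold of 23, Inhba, the activin A subunit, being the farthest above at 62.3 CPM against 33.6 CPM (0.89) and Smad6, an inhibitor of the pathway, the farthest below at 38 CPM against 64.9 CPM (-0.77). None of 22 genes of the unfolded protein response and none of 17 p53 and senescence genes passed, the latter including Cdkn1a, the cell cycle inhibitor p21, at 142 CPM against 83.8 CPM (0.76). Of 10 oxylipin genes compared none passed, and Cyp1b1 and Ptgs2 were under the level compared, at 5.10 CPM and 5.33 CPM in DEN+WAD and 0 UMIs in chow. The medians of the 25 lists ran from -0.36 to 0.44.

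**Figure D4:**
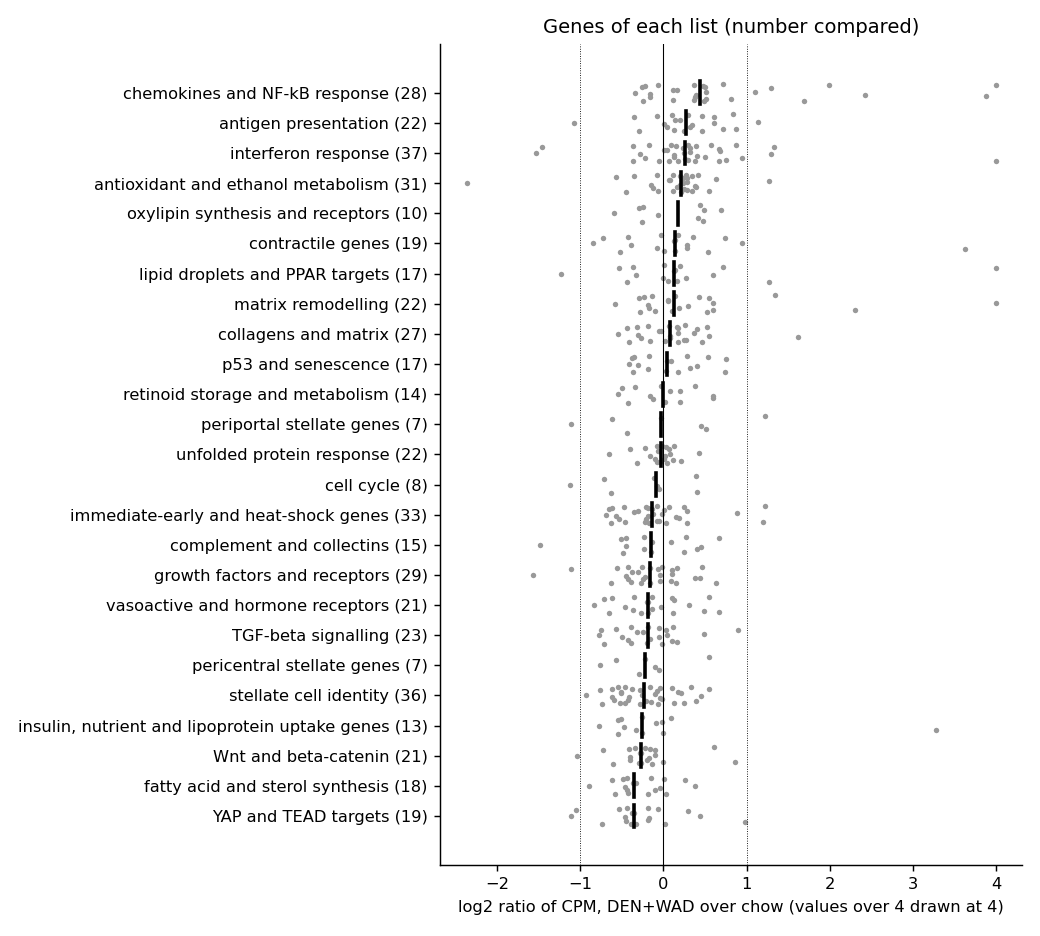
Log2 ratios of DEN+WAD over chow for the genes of the 25 lists (grey points, values over 4 drawn at 4; black bars, list medians; number of genes compared in brackets; dotted lines, 2-fold). The chemokine and NF-kB list has the highest median (0.44) and the YAP and TEAD target list, which also holds Yap1, the lowest (-0.36), and most members of every list lie within 2-fold.

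The vitamin A-negative sort of mice given the same treatments was taken through the same cell rule to see where the vitamin A-positive contrast differs. It gave 1755 of 2729 barcodes in DEN+WAD and 464 of 668 in chow, and shares no library with the contrast above. Of the 7942 genes, 301 (3.79%) were 2-fold or more higher there and 191 (2.4%) lower. Of the 66 genes higher in the VitA+Col1a1+ cells 24 were also 2-fold higher in the VitA-Col1a1+ cells and 7 were 2-fold lower. Cxcl9 (5.27), Serpina3g (5.22), Cadm1 (4.26), Ccl2 (3.14), H2-Q7 (3.13), Cxcl10 (2.77) and Angptl4 (2.74) were higher in both. Several matrix and contractile genes were not: Col1a1 was at 1015 CPM in VitA-Col1a1+ DEN+WAD cells and 1800 CPM in chow (-0.83), Acta2 at 711 CPM and 1023 CPM (-0.53), S100a6 at 761 CPM and 1650 CPM (-1.12), and Dpt at 639 CPM and 2347 CPM (-1.88). Other genes of these groups were above 0 there too, Timp1 at 0.40, Ctgf at 0.52, Sparc at 0.51 and Bgn at 0.73. Col1a1, Acta2, S100a6 and Dpt were each higher in both VitA-Col1a1+ libraries than in either VitA+Col1a1+ library. The stellate identity list, with a median of -0.23 in the VitA+Col1a1+ cells, had one of 1.09 in the VitA-Col1a1+ cells, where Reln was at 695 CPM against 123 CPM. Ecm1 was at 5353 CPM against 947 CPM there, and the portal fibroblast list had a median of -1.48. In VitA+Col1a1+ chow cells Reln was at 1968 CPM, Ecm1 at 10101 CPM and Dpt at 10.5 CPM. Of the VitA-Col1a1+ cells selected, 179 of 1755 in DEN+WAD and 67 of 464 in chow had only 1 Lrat UMI. What part the make-up of the cells had in the opposite signs was not tested. Of the 124 lower genes 42 were 2-fold lower in both sorts, Gdpd3 (-4.42), Lars2 (-2.36) and Igfbp3 (-1.36) among them. With 1 library for each condition and sort, no difference between the contrasts was tested.

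**Figure D5:**
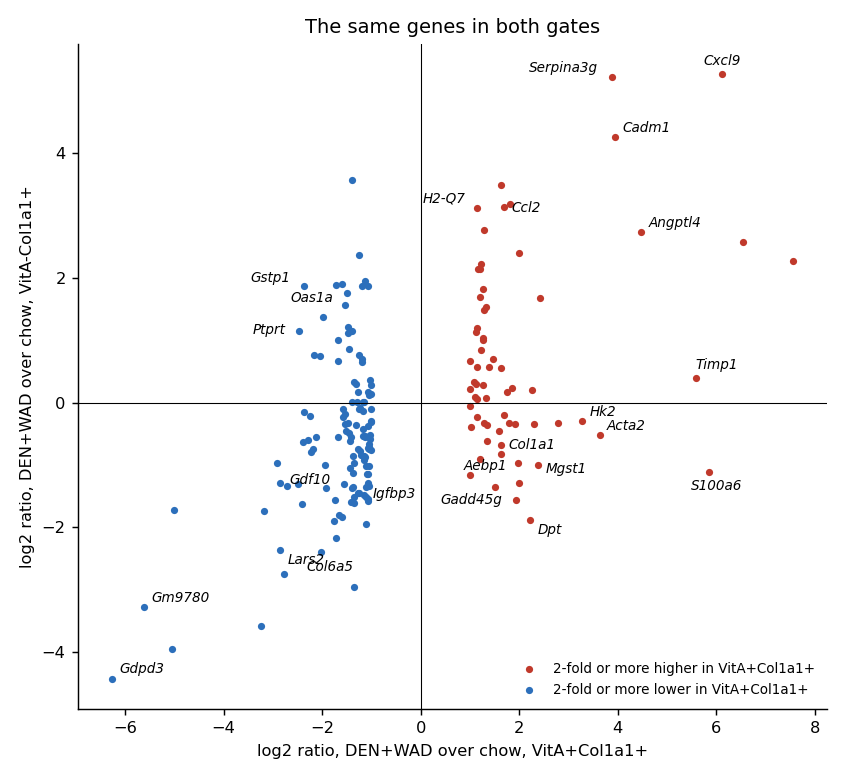
Log2 ratios of DEN+WAD over chow in VitA+Col1a1+ cells (horizontal) and in VitA-Col1a1+ cells (vertical) for the 66 genes higher (red) and the 124 genes lower (blue) in VitA+Col1a1+ cells. Cxcl9, Serpina3g, Cadm1 and Angptl4 are high in both, while S100a6, Dpt, Acta2 and Col1a1 lie below 0 on the vertical axis.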

How the data were processed

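Single cells from 5 sorted mouse liver populations, 1 library each, were profiled by the authors with 10x Genomics 3' chemistry (the labels name both v3.1 and v2 kits, with a target of 10000 cells). Per the labels, reads were processed with Cell Ranger 3.1.0 on mm10. The deposited matrices hold raw UMI counts for 31053 features, and the annotation release is not given in the sources used here. Cells were selected as the report states, with no doublet caller. UMI counts were summed per library and divided by their total (CPM). Genes with a mean of 10 CPM or more were compared, and a ratio of 2-fold or more was counted as a difference. Ratio intervals are exact conditional-binomial and level intervals exact Poisson, at 95%. There is 1 library a group, so no test was run. The members and gene lists were chosen with earlier results of these data known. Named genes are the 15 most different in each direction by the interval bound nearest 1 (without genes of the cell rule and of other cell types), the 2 highest of each list with up to 3 most different in each direction, the study's own genes, and the 3 highest genes of each other cell type. Genes such as Col1a2, Col3a1, Col6a5, Ogn, Adamts13, Dll4, Cd44, Plat, Cxcl1, Alb, Apoa1, Myh11 and Gm42418 were added after their values were seen. Shared 3' ends were found from 31-base words in the last 400 transcript bases, on the supplied GRCm38 annotation, which also gave gene positions. The step of ratios and intervals was tested on simulated data drawn as independent counts, without the uneven spread over cells seen here. Python 3.11.15, numpy 2.4.6, scipy 1.17.1, pandas 2.3.3, R 4.3.3 and edgeR 4.0.16 (TMM factors alone) were used. A total of 15 other settings was tried.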

Additional observations from a re-analysis of the deposited data

Results flagged for a closer look

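Among the named genes, the following were 2-fold or more apart in the VitA+Col1a1+ cells, with the opposite sign and a counting interval clear of 0 in the VitA-Col1a1+ cells. The difference between the sorts was not tested, since each side is 1 library. The stellate gene Ecm1 was at 947 CPM in VitA-Col1a1+ chow, 5353 CPM in VitA-Col1a1+ DEN+WAD and 10101 CPM in VitA+Col1a1+ chow. What part the make-up of the cells had in the signs was not tested. Values are log2 ratios of DEN+WAD over chow, the VitA+Col1a1+ value first. Of genes tied to matrix and contraction, S100a6 was at 5.85 and -1.12, Acta2 at 3.63 and -0.53, Serpine2 at 2.30 and -0.35, Dpt at 2.22 and -1.88, Aebp1 at 1.97 and -0.97, Col1a1 at 1.62 and -0.83, and Mmp23 at 1.34 and -0.36. Of other genes higher in VitA+Col1a1+ cells, Hk2 was at 3.28 and -0.30, Medag at 2.79 and -0.32, Mgst1 at 2.38 and -1.01, and Ly6a at 1.59 and -0.45. On the lower side, H2-Q4 was at -1.07 and 1.87, Gbp6 at -1.46 and 0.86, Cfb, complement factor B, at -1.48 and 1.22, Oas1a at -1.54 and 1.56, Gstp1, a glutathione transferase, at -2.37 and 1.87, and Ptprt at -2.46 and 1.15. Of these 6, all but Ptprt share between 40.4% and 96.8% of the 3' end with another counted gene.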

How the results depend on the processing

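No paired analysis was possible because each group is 1 library. In these settings 66 genes were higher and 124 lower as reported. Thinning each cell to 2000 UMIs, which leaves few UMIs in chow, gave 244 and 348. A mean of at least 50 CPM gave 16 and 38 of 3038 genes, and no filter on low values 660 and 3766 of 16622. Leaving out the 5% of cells richest in each gene, a setting chosen after seeing the data, gave 72 and 269, and keeping to protein-coding genes without shared 3' ends, chosen likewise, gave 64 and 81. The other settings stayed within 1.5 times for both counts: TMM factors, CPM without mitochondrial and ribosomal protein genes, equal weight of cells, cells of 10000 to 30000 UMIs, a minimum of 5000 UMIs, every barcode, and leaving out cells with over 1% of UMIs from hepatocyte and bile duct genes, over 10% mitochondrial UMIs, over 2 times the median UMIs or shared barcodes. Col1a1, at 1.62 on the log2 scale, was at 1.10 with equal weight of cells, 1.35 after thinning, 1.18 in cells of 10000 to 30000 UMIs, 1.14 without cells over 2 times the median and 0.81 without the 5% richest cells. The causes were not tested. By thinning Pdk4 was at -0.53, and Aebp1 (0.91) and Mt2 (0.99 without the richest cells) also went under 2-fold, as did Igfbp3 (-0.99), Lrp5 (-0.90), H2-Q4 (-0.89) and Ajuba (-0.82) by thinning, the last 3 also with TMM factors. Of the 66 higher and 124 lower genes 53 and 96 were still past 2-fold after thinning, and 1 lower gene, Hspa12a, changed sign there. Of the values of named genes under these settings 1983 moved by less than their counting interval and 463 by more. The chow library, with 232 cells, limits the precision of every ratio.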

Other observations

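Genes of dividing cells were near the lower limit of what could be compared. Mki67, a marker of cycling cells, was at 7.62 CPM in DEN+WAD and 12.5 CPM in chow (log2 ratio -0.72, interval -1.06 to -0.35). In DEN+WAD 22 cells (0.221%) held 50% of its UMIs, and in chow 23 cells (9.91%), where its 70 UMIs lay in 58 cells. Of the 22 DEN+WAD cells 72.7% were over 2 times the median UMIs, with Lrat at 326 CPM against 1530 CPM in the rest. Pcna, the clamp of DNA polymerase, was at 26.4 CPM against 57.7 CPM (-1.13), the 1 of 8 cell cycle genes past 2-fold.

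Genes of blood and mesothelial cells were low in both libraries. Macrophage genes summed to 7.51 CPM in DEN+WAD and 4.47 CPM in chow, T and NK cell genes to 8.87 CPM and 0.357 CPM, B cell genes to 2.15 CPM and 1.43 CPM, neutrophil genes to 0.151 CPM and 0.715 CPM, and mesothelial genes to 8.40 CPM and 1.25 CPM. Of the T and NK sum, Ccl5, a chemokine that other cells also make, gave 8.65 CPM, with 0 UMIs in chow. Bile duct genes summed to 341 CPM and 393 CPM, of which Clu, clusterin, gave 313 CPM and 369 CPM. Endothelial genes summed to 4400 CPM and 4168 CPM, of which Plvap gave 3327 CPM and 3071 CPM. Pf4, listed as a platelet gene, was at 89.4 CPM against 37.0 CPM (1.27, 1.08 to 1.48), with 1370 DEN+WAD cells holding 50% of its UMIs. Ppbp, its usual companion in platelets, had 0 UMIs in both libraries.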
